A study of Homo sapiens with 6 samples.

Results

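The oxidative phosphorylation genes described here encode the subunits of respiratory complexes I, III and IV and of ATP synthase (complex V), from both genomes of the cell. They were picked by gene symbol, with no measured value in the rule, but earlier results of these data were known when it was chosen. Of 215 symbols that matched, 113 that end in P plus digits, as pseudogene symbols do, and 2 antisense genes were dropped. This left 100 of the 57445 genes in the table. Mitochondrial DNA encodes 13 of them, with 7 in complex I, 1 in complex III, 3 in complex IV and 2 in complex V. The other 87 are nuclear, with 41 named for complex I, 9 for complex III, 17 for complex IV and 20 for complex V.

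Bulk RNA came from H358 cells, a widely used human lung cancer line of the non-small cell type that was described as bronchioalveolar. The 6 libraries formed 3 groups of 2. C1 and C2 are isogenic clones that carry the A273V change of BRMS1v2 on both copies, and WT is the parental line with wild-type BRMS1, a gene known as a suppressor of metastasis. All groups grew in the same serum-containing medium, and each clone is a single line. How the clones were derived is not in the labels, nor is whether replicates 1 and 2 were cultured apart, so the p-values below cover the spread of these libraries alone.

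Complexes I, III and IV pass electrons from NADH and ubiquinol to oxygen and pump protons out of the mitochondrial matrix, and ATP synthase uses the returning protons to make ATP. Mitochondrial DNA is transcribed as long RNAs from both strands, which are then cut into rRNAs, tRNAs and mRNAs, while each nuclear subunit gene has its own promoter and its protein is imported. The mitochondrially encoded subunits lie at the membrane core of their complexes, and most nuclear subunits surround that core.

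The libraries held 27527867 to 37146270 reads assigned to genes, and over all 6 of them 13175106 fell on the 100 genes. Epithelial markers were present, with a summed level of 5323 to 7483 CPM (read counts scaled to library size with TMM factors). Among them NKX2-1 and MUC1 had means of 110 and 50.4 CPM. The secretory and alveolar genes SCGB1A1, SFTPC, SFTPB and CLDN18 had 0 to 3 counts over all libraries, and SCGB3A2 had 40. Fibroblast markers summed to 39.3 to 70.8 CPM, endothelial markers to 9.5 to 42.2 CPM and leukocyte markers to 1.1 to 4.0 CPM. The fibroblast sum came mainly from COL1A1 and LUM, with means of 38.2 and 17.3 CPM. COL1A2, DCN and PDGFRB had 6, 6 and 11 counts over all libraries. The endothelial sum came mainly from KDR, with a mean of 19.4 CPM, beside 1.56 for CDH5 and 1.22 for VWF. In bulk RNA, fewer cells of a type and less RNA per cell cannot be told apart.

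The places where neighbouring mitochondrial genes meet are shown for 3 pairs because their genes share an RNA or share bases, so that the pairs can be compared below. They are read from the GRCh38 reference on the + strand, with capitals marking the bases that belong to both genes.
MT-ATP8 to MT-ATP6, chrM:8517-8582: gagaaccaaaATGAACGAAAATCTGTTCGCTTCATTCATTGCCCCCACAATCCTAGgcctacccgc
MT-ND4L to MT-ND4, chrM:10740-10786: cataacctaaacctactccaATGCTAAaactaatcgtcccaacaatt
MT-ATP6 to MT-CO3, chrM:9187-9227: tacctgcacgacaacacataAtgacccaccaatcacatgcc
The open reading frames of MT-ATP8 and MT-ATP6 share 46 bases and those of MT-ND4L and MT-ND4 share 7, and each pair is known to stay on 1 mRNA. MT-ATP6 and MT-CO3 share 1 base, and their RNA is cut between the reading frames. How reads over the shared bases were counted is not given in the sources used here.

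Per length of gene, and averaged over the 6 libraries, MT-CO3 had 10189 CPM per kb, MT-CO2 9862 CPM per kb and MT-CO1 8657 CPM per kb. The order was not the same in each library: MT-CO2 stood above MT-CO3 in replicate 1 of C2 (13643 against 12109 CPM per kb) and of WT (11156 against 8827 CPM per kb). These 3 genes encode the catalytic core of cytochrome c oxidase. MT-ATP6, a proton channel subunit of ATP synthase, had 8038 CPM per kb, MT-ND4 had 6634 CPM per kb and MT-ATP8 had 6317 CPM per kb. MT-CYB, the cytochrome b of complex III, had 4597 CPM per kb. The remaining complex I genes ran from 4181 CPM per kb for MT-ND2 through MT-ND4L, MT-ND3, MT-ND1 and MT-ND5 to 1513 CPM per kb for MT-ND6. MT-ND6 is the single subunit gene encoded on the other strand of mitochondrial DNA.

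Nuclear subunit mRNAs were far lower per length. The highest in each complex were NDUFS5 of complex I at 190 CPM per kb, UQCRH of complex III at 123 CPM per kb, COX8A of complex IV at 212 CPM per kb and ATP5B, the catalytic beta subunit of ATP synthase, at 254 CPM per kb. The lowest that were tested were NDUFA4L2 at 0.95 CPM per kb, UQCR11 at 0.47, COX6B2 at 0.84 and ATP5S at 0.80 CPM per kb. UQCR11, NDUFA7 and NDUFB8 are each listed under 2 overlapping identifiers, so their counts are uncertain. ATP5S and ATP5SL match by symbol but are not subunits in present usage, NDUFA4 is now assigned to complex IV, and COX7A2L is a supercomplex factor. ATP5J2LP is annotated as a processed pseudogene, which the rule on symbols did not drop, and had 0 counts.

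Most isoforms restricted to certain tissues were absent or low beside their ubiquitous partners. COX4I2 and COX6A2 had 0 counts, COX8C stood at 0.13 CPM per kb, and COX7A1 was near 0, against 44.3 CPM per kb for COX4I1, 83.5 for COX6A1, 212 for COX8A and 67.6 for COX7A2. COX6B2, known from testis, had 0.84 CPM per kb against 124 for COX6B1. COX7B2, also known from testis, was not as low: it had 31.3 CPM per kb against 27.5 CPM per kb for COX7B. The lengths used, over all annotated exons, were 807 bases for COX7B2 and 3024 bases for COX7B. Over all libraries COX7B2 had 4752 counts and COX7B had 15571, so the closeness per kb rests on the lengths. UQCRHL is not used here.

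The filter on low counts kept 17129 genes, among them all 13 mitochondrial and 76 nuclear subunit genes. By complex, the 76 were 38, 8, 13 and 17 genes of complexes I, III, IV and V. The 11 genes not tested were COX4I2, COX6A2, COX7A1, COX8C, ATP5L2, ATP5J2LP, the read-through genes ATP5J2-PTCD1 and NDUFC2-KCTD14, and 1 identifier each of UQCR11, NDUFA7 and NDUFB8. No read was counted for 5 of the 100 genes.

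The mitochondrial mRNAs were lower in the libraries numbered replicate 2 than in those numbered replicate 1, in the clones and in WT. What the number marks is not given in the labels. MT-ND4, a proton-pumping subunit of complex I, had 6170 CPM in C1, 7666 CPM in C2 and 5181 CPM in WT in the replicate 2 libraries. In the replicate 1 libraries it had 11929 CPM in C1, 13209 CPM in C2 and 10693 CPM in WT. Every replicate 2 library thus lay below every replicate 1 library. The fitted level in replicate 2 was 0.526 of that in replicate 1 (log2 difference -0.93, SE 0.12, edgeR adjusted p = 0.00013).

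Of the 13 mitochondrial mRNAs, 12 were lower in replicate 2 at an adjusted p below 0.05 in edgeR's quasi-likelihood test with group in the model, and none was higher. Over all genes tested, 12.2% were called lower and 12.5% higher. The median log2 difference of the 13 was -0.70, beside 0.003 over all genes. All 13 were lower in replicate 2 within C1, C2 and WT alike, a pattern found in 28.3% of all genes. In 11 of the 13 the replicate 2 libraries all lay below the other 3, which was so for 18.5% of all genes. The median within C1 was -0.61, within C2 -0.61 and within WT -0.85.

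**Figure D1:**
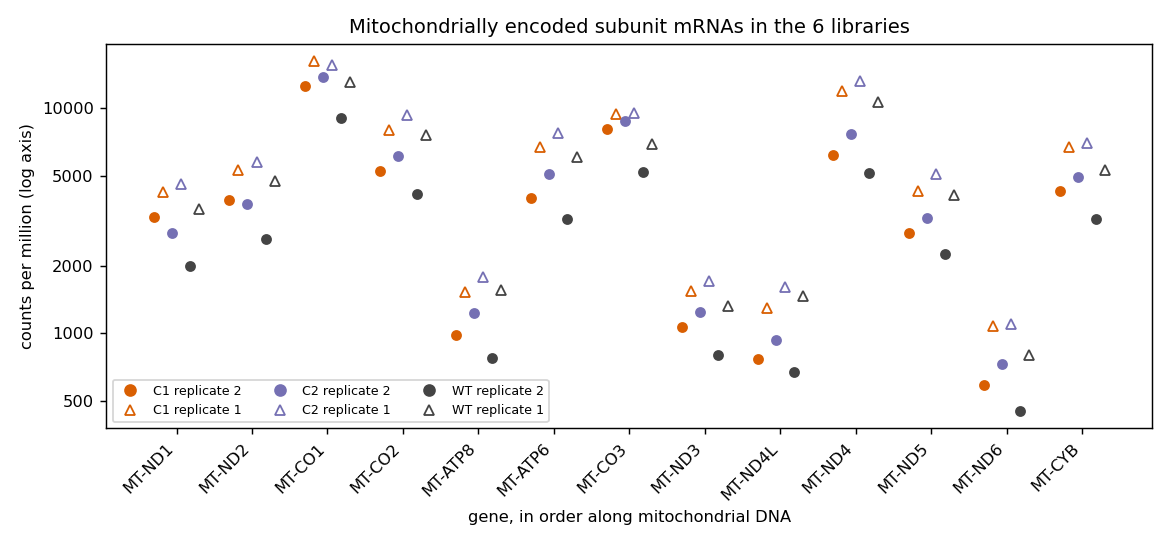
CPM on a log axis for the 13 mitochondrially encoded subunit genes, in their order along mitochondrial DNA, with filled circles for replicate 2 libraries and open triangles for replicate 1 libraries, coloured by group. The circles lie below the triangles of the same group in all 13 genes, and the ranges overlap in MT-CO1 and MT-CO3.

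The size of the split differed along the genome. MT-ND4L differed by -0.89 (log2, SE 0.12), MT-ND6 by -0.76 (SE 0.12), MT-ATP6 by -0.76 (SE 0.12), MT-ATP8 by -0.72 (SE 0.12), MT-ND5 by -0.71 (SE 0.12) and MT-CO2 by -0.70 (SE 0.12). MT-ND1 differed by -0.65 (SE 0.12), MT-ND2 by -0.64 (SE 0.12), MT-CYB by -0.63 (SE 0.11) and MT-ND3 by -0.57 (SE 0.11). MT-CO1 and MT-CO3 stood nearest to 0.

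MT-CO1, the catalytic subunit of cytochrome c oxidase, had 12591 CPM in C1, 13765 CPM in C2 and 9070 CPM in WT in replicate 2. It had 16118, 15547 and 13002 CPM in C1, C2 and WT in replicate 1. The C2 library of replicate 2 lay above the WT library of replicate 1, so the replicates overlapped. Its log2 difference of -0.35 (SE 0.12) was called at an edgeR adjusted p of 0.046. That call was kept in 1 of the 6 fits that left out a library.

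MT-CO3, which encodes the third core subunit of the oxidase, had 8111 CPM in C1, 8751 CPM in C2 and 5229 CPM in WT in replicate 2, against 9424, 9493 and 6920 CPM in replicate 1. The replicates overlapped, and the log2 difference of -0.25 (SE 0.12) was not called (edgeR adjusted p = 0.14).

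Ratios of counts between neighbouring genes show how the split differed along the RNA. The ratio of MT-ATP6 to MT-ATP8 counts was 4.08 in replicate 2 and 4.40 in replicate 1 of C1, 4.14 and 4.37 in C2, and 4.13 and 3.89 in WT. The ratio of MT-ND4 to MT-ND4L counts was 8.01 and 9.17 in C1, 8.20 and 8.22 in C2, and 7.67 and 7.26 in WT, in the same order. The ratio of MT-CO3 to MT-ATP6, whose junction is shown above, was 2.03 in replicate 2 and 1.40 in replicate 1 of C1, 1.72 and 1.22 in C2, and 1.63 and 1.14 in WT. This last ratio was higher in replicate 2 in all 3 groups, while the first and the second ratio had no common direction.

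The mitochondrial rRNAs, made from the same long RNA, did not share the direction. MT-RNR2, the large rRNA, was higher in replicate 2 by 0.48 (log2, SE 0.12, edgeR adjusted p = 0.008), and MT-RNR1, the small rRNA, differed by 0.16 (edgeR adjusted p = 0.36). The ratio of subunit mRNA counts to rRNA counts was 6.26 in replicate 2 and 13.6 in replicate 1 of C1. In C2 it was 7.14 in replicate 2 and 12.5 in replicate 1, and in WT 5.86 and 12.7. The replicate 2 ratios lay below all replicate 1 ratios.

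**Figure D2:**
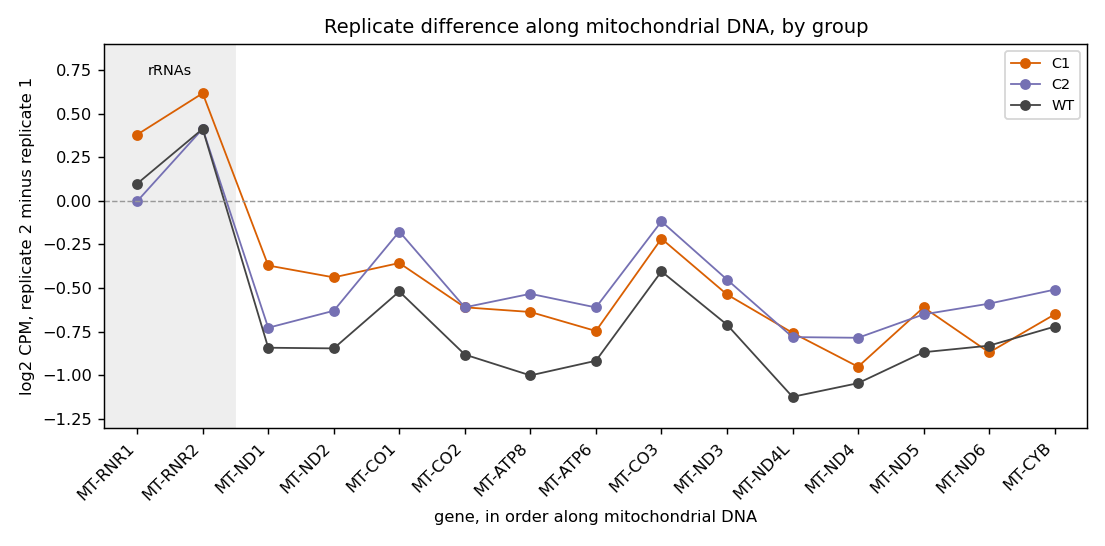
Log2 CPM of replicate 2 minus replicate 1 for the 2 rRNA genes and the 13 subunit genes in their order along mitochondrial DNA, with 1 line per group. MT-RNR2 lies above 0 in each group, all subunit genes lie below 0, and MT-CO3 and MT-CO1 are the subunit genes nearest to 0 in C2, C1 and WT.

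Many nuclear subunit genes were lower in replicate 2 as well. Of the 76 tested, 29 were called lower and 1 higher by edgeR, where 12.2% of all genes were called lower and 12.5% higher. The median log2 difference was -0.27. The median was -0.40 within C1, -0.20 within C2 and -0.29 within WT. In 49 of the 76 the value was lower in replicate 2 in all 3 groups, as in 28.3% of all genes. In 39 the replicate 2 libraries all lay below the others, as in 18.5% of all genes. By complex, 13 of 38 genes of complex I, 2 of 8 of complex III, 5 of 13 of complex IV and 9 of 17 of complex V were called lower. The medians were -0.24, -0.17, -0.33 and -0.39, in the same order.

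ATP5G1 encodes subunit c, which forms the rotor ring of ATP synthase. It had 19.6 CPM in C1, 30.7 CPM in C2 and 26.8 CPM in WT in replicate 2, against 53.1, 57.7 and 56.3 CPM in replicate 1. The groups of libraries did not overlap, and the log2 difference was -1.14 (SE 0.14, edgeR adjusted p = 0.00014).

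NDUFB3, an accessory subunit of the membrane arm of complex I, had 23.0 CPM in C1, 32.6 CPM in C2 and 27.5 CPM in WT in replicate 2. In replicate 1 it had 50.0, 46.6 and 49.1 CPM. The log2 difference was -0.82 (SE 0.15), again with no overlap. COX8A, a small nuclear subunit of the oxidase, had 70.2, 87.4 and 91.6 CPM in C1, C2 and WT in replicate 2, against 133, 119 and 144 CPM in replicate 1, and differed by -0.67 (SE 0.13). The other 3 among the 6 lowest were COX7B2 at -0.80, NDUFB6 at -0.78 and COX6C at -0.75.

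In 13 of the 76 nuclear genes the log2 difference was positive, and 1 was called higher. This was NDUFA4L2, an isoform of NDUFA4 known to be induced by hypoxia. It had 4.48 CPM in C1, 2.63 CPM in C2 and 4.61 CPM in WT in replicate 2, against 1.53, 0.35 and 2.33 CPM in replicate 1. The log2 difference was 1.64 (SE 0.32, edgeR adjusted p = 0.004), with 54, 10 and 73 counts in C1, C2 and WT in replicate 1. Its partner NDUFA4 fell by 0.61 on the log2 scale (SE 0.13).

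Within complexes I and V the calls were uneven, in a grouping chosen after the values were seen and not tested. Over all genes 12.2% were called lower, a share from which counts in groups of 7 or 5 genes cannot be told apart. None of the 7 nuclear core subunits of complex I, which carry the flavin and iron-sulfur centres, was called, with log2 differences of -0.07 to 0.18. Of 29 accessory subunits 12 were called lower, with a median of -0.35. Of 5 subunits of the catalytic F1 head of ATP synthase, 1 was called lower (ATP5B, -0.41), and all 5 were negative, at -0.41 to -0.13. All 3 genes for subunit c were called lower (ATP5G1, ATP5G3 at -0.50 and ATP5G2 at -0.42), as were 5 of 7 other stalk and membrane subunits.

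**Figure D3:**
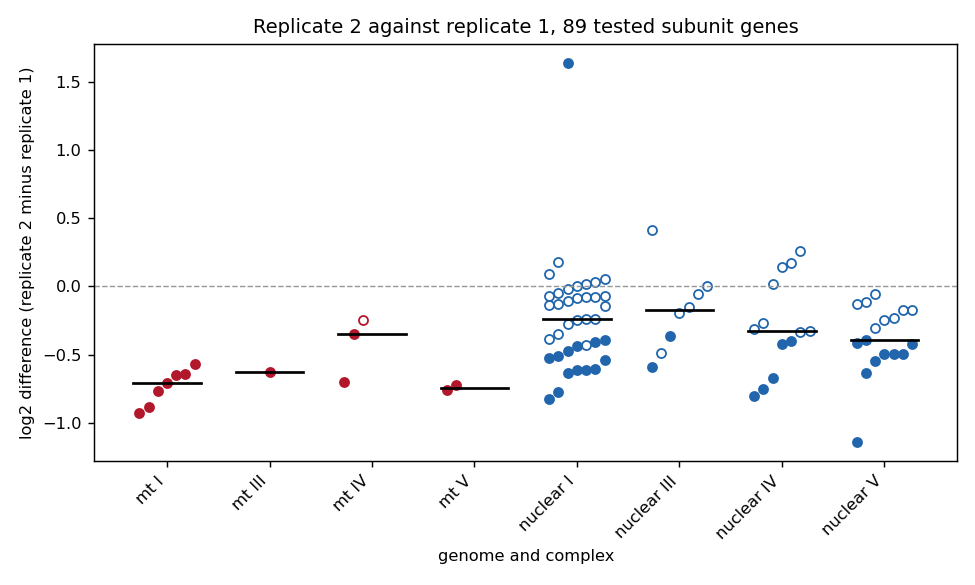
Log2 difference of replicate 2 minus replicate 1 for the 89 tested subunit genes by genome (mt, mitochondrial) and complex, with filled points for genes called at an adjusted p below 0.05 and black lines for medians. All mitochondrial points lie below 0, and the single filled point above 0 is NDUFA4L2 at 1.64.

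Other values moved with the replicate number. The 15 proliferation genes were all lower in replicate 2, 6 of them called, with a median log2 difference of -2.14. Their summed level was 356 CPM in replicate 2 and 2643 CPM in replicate 1 of C1, 948 and 3055 CPM in C2, and 1031 and 2651 CPM in WT. Their part in the subunit result was not tested. Across the 76 nuclear genes the log2 difference correlated with GC content by r = 0.37, beside 0.17 over all genes, as a description in which the points share libraries. With log2 transcript length the correlation was r = 0.12, beside 0.077 over all genes. The number of subunit genes called was 42 with all libraries, 8 without C2 replicate 1 (5 mitochondrial and 3 nuclear) and 11 without C2 replicate 2 (8 mitochondrial and 3 nuclear). In the same fits the calls over all genes numbered 4229, 706 and 702, while without either C2 library the median of the mitochondrial genes was -0.74 and that of the nuclear genes -0.31. MT-ND4, MT-ND4L, MT-ND6, MT-ATP6, MT-ATP8, NDUFB3, COX8A and ATP5G1 were called in all 6 fits that left out a library.

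The mitochondrial mRNAs made up 5.40% of gene counts in replicate 2 and 7.45% in replicate 1 of C1, 5.99% and 8.03% in C2, and 4.28% and 6.84% in WT. The share was lowest in WT within each replicate number. The group means were 6.42% ± 1.45 in C1, 7.01% ± 1.44 in C2 and 5.56% ± 1.81 in WT (SD, n = 2 each), so the groups overlapped. Nuclear subunit mRNAs made up 0.521% and 0.676% in C1, 0.592% and 0.663% in C2, and 0.606% and 0.685% in WT, in the same order. The ratio of mitochondrial to nuclear subunit counts averaged 10.7 ± 0.466 in C1, 11.1 ± 1.41 in C2 and 8.52 ± 2.06 in WT (SD, n = 2 each). It was 10.4, 10.1 and 7.07 in C1, C2 and WT in replicate 2, and 11.02, 12.1 and 9.98 in replicate 1. Nuclear copies of mitochondrial genes listed in the table held few reads, at 0.0567% to 0.0687% of the mitochondrial mRNA counts.

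**Figure D4:**
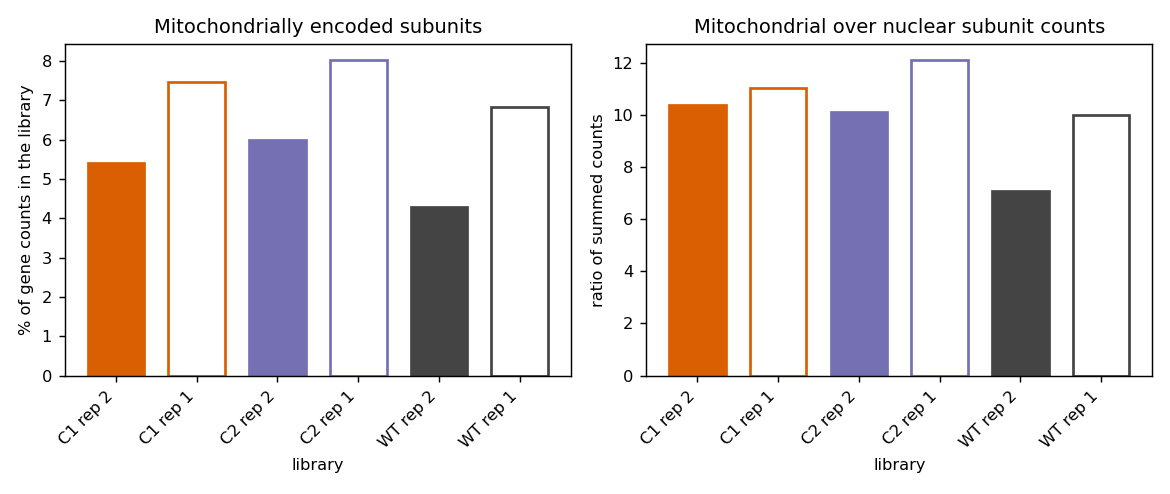
Left, the percent of gene counts that fell on the 13 mitochondrially encoded subunit genes in each library; right, the ratio of mitochondrial to nuclear subunit counts. Filled bars are replicate 2 and open bars replicate 1 (rep), and the share runs from 4.28% in WT replicate 2 to 8.03% in C2 replicate 1.

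The study's own question was how the clones differ from the parental line. In the fit without the replicate number, no subunit gene was called by edgeR in C1 against WT, in C2 against WT or for the mean of the clones against WT. In the same comparisons 0.0117%, 0.0117% and 0.198% of all genes were called. At an unadjusted p below 0.05 there were 4, 4 and 7 of the 89 subunit genes, and 7.87%, 6.75% and 9.79% of all genes. DESeq2 called 0, 0 and 1 subunit genes, and 1.58%, 1.22% and 2.29% of all genes. C2 against C1 gave 0 subunit genes in edgeR, in DESeq2 and at an unadjusted p below 0.05, where the shares of all genes were 0%, 0% and 0.356%.

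Same-numbered libraries deviated together, so the replicate number was also used as a block, which leaves 2 residual degrees of freedom. With the block, edgeR called 2 subunit genes higher and 1 lower in C1 against WT, where 2.96% of all genes were higher and 4.07% lower. It called 3 higher and 1 lower in C2 against WT, where 1.94% of all genes were higher and 2.59% lower. For the mean of the clones it called 6 higher and 2 lower, where 4.12% were higher and 5.63% lower. C2 against C1 again gave 0 subunit genes and 0% of all genes, with 1 subunit gene and 3.75% of all genes at an unadjusted p below 0.05.

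MT-CO3 was the mitochondrial mRNA called in both clones. As given above, it had 8111 and 9424 CPM in C1 and 8751 and 9493 CPM in C2, against 5229 and 6920 CPM in WT, in replicates 2 and 1. All 4 clone libraries lay above both WT libraries. With the block it was higher by 0.54 in C1 (log2, SE 0.14, edgeR adjusted p = 0.038) and by 0.60 in C2 (SE 0.14, adjusted p = 0.032). Without the block the differences were 0.53 and 0.59, with edgeR adjusted p of 0.68 and 0.74. It was the single one of the 13 with no overlap of clones and WT, beside 11.9% of all genes with all clone libraries above and 11.9% with all below.

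MT-ND6 had 588 and 1075 CPM in C1 and 736 and 1107 CPM in C2, against 453 and 806 CPM in WT, in replicates 2 and 1. The groups overlapped. With the block it rose by 0.58 in C2 (log2, SE 0.14, edgeR adjusted p = 0.036), while the value in C1 was 0.40 (adjusted p = 0.12). Whether the clones differ from each other was tested for each gene in C2 against C1, where none was called.

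For the mean of the clones with the block, MT-CO3 differed by 0.57, MT-ND6 by 0.49, MT-ND1 by 0.46 and MT-CYB by 0.44 (log2), with edgeR adjusted p of 0.013, 0.027, 0.048 and 0.039. None of these calls was kept in every blocked fit that left out a library. Over those fits the values ran from 0.45 to 0.69, 0.41 to 0.55, 0.31 to 0.61 and 0.37 to 0.51, in the same order. The other 9 were not called, and ran from 0.15 for MT-ND4L through 0.28 for MT-ATP8, 0.30 for MT-ND5, 0.31 for MT-CO2, 0.32 for MT-ND4, 0.37 for MT-ATP6, 0.38 for MT-ND2 and 0.41 for MT-ND3 to 0.41 for MT-CO1. The median of the 13 with the block was 0.31 in C1 and 0.43 in C2. In 11 of the 13, all but MT-ND4L and MT-ATP8, the clone was higher in all 4 same-numbered pairs, as in 22.9% of all genes. The comparisons with WT share the WT libraries. Without the block and without WT replicate 2, 7 of the 13 had a negative value for the mean of the clones, with a median of -0.012. With the block and without that library the median was 0.25.

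The median difference of the 13 between C1 and WT was 0.38 in replicate 2 and 0.17 in replicate 1. Between C2 and WT it was 0.60 in replicate 2 and 0.31 in replicate 1. The median difference of C2 minus C1 was 0.19 with the block. The nuclear medians with the block were -0.07 in C1 and 0.02 in C2. In all 4 pairs 16 nuclear genes were higher and 20 lower, where 22.9% of all genes were higher and 21.8% lower. With all clone libraries on 1 side of WT, 6 of the 76 nuclear genes lay above and 9 below. Of all genes 11.9% lay above and 11.9% below.

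Few nuclear subunit genes were called between clones and WT. NDUFS8 encodes a core iron-sulfur subunit of complex I. It had 32.6 and 25.9 CPM in C1 and 28.2 and 25.1 CPM in C2, against 43.9 and 51.2 CPM in WT, in replicates 2 and 1. All clone libraries lay below both WT libraries. With the block it fell by 0.71 in C1 (log2, SE 0.18, edgeR adjusted p = 0.031) and by 0.84 in C2 (SE 0.18, adjusted p = 0.019). Neither call was kept in every blocked fit that left out a library. The values ran from -0.94 to -0.47 in C1 and from -1.07 to -0.60 in C2.

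NDUFV1, which binds the NADH-oxidising flavin of complex I, had 76.4 and 82.2 CPM in C1 and 79.7 and 72.3 CPM in C2, against 98.6 and 118 CPM in WT. The libraries did not overlap, and it was called for the mean of the clones with the block (log2 -0.48, edgeR adjusted p = 0.038). NDUFS8 and NDUFV1 lie on the long arm of chromosome 11, between BRMS1 and its end, with NDUFC2 and ATP5L. For the mean of the clones all 4 had negative values, with a median of -0.40, and 354 of all 408 tested genes in that stretch had negative values, with a median of -0.38. Its part in the result was not tested. The 2 subunit genes on chromosome 11 before BRMS1, COX8A and NDUFS3, had a median of -0.11. The 12 on chromosome 19 had -0.27, beside -0.08 for all 1224 tested genes there, and the 60 nuclear subunit genes elsewhere had 0.02. Across the 76 nuclear genes the difference for the mean of the clones correlated with GC content by r = -0.51, beside -0.10 over all genes, again as a description.

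NDUFA8, an accessory subunit of complex I, had 66.3 and 71.4 CPM in C1 and 65.6 and 73.8 CPM in C2, against 44.7 and 49.6 CPM in WT, with no overlap. With the block it rose by 0.55 in C1 (log2, SE 0.15, edgeR adjusted p = 0.046), and the value in C2 was 0.56 (adjusted p = 0.052). The call in C1 was kept in 0 of the 6 fits that left out a library, with values of 0.52 to 0.58. COX7A2, the ubiquitous isoform of an oxidase subunit, had 99.9 and 175 CPM in C1 and 157 and 162 CPM in C2, against 88.9 and 97.1 CPM in WT. It rose in C2 by 0.78 with the block (log2, SE 0.19, edgeR adjusted p = 0.037), and the value in C1 was 0.53, which was not called. For the mean of the clones it was called at 0.65 (edgeR adjusted p = 0.029). Both libraries of C1 and of C2 lay above both WT libraries.

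With the block, the proliferation genes had a median of -0.74 (log2) for C1 against WT and of 0.01 for C2 against WT, with 1 of 15 called lower in C1 and none in C2; their part in the subunit values was not tested. Leaving out a library changed the blocked calls. Without either C2 library, 0 subunit genes were called in C1 against WT, C2 against WT and the mean of the clones. Over all genes the calls in C1 against WT numbered 1204 with all libraries, 191 without C2 replicate 1 and 190 without C2 replicate 2, and those for the mean of the clones 1669, 242 and 203. The mitochondrial median in C1 against WT was 0.31 with all libraries and without either C2 library. For C2 against WT, where 4 were called with all libraries, the blocked mitochondrial median was 0.43. It was 0.42 without C1 replicate 1, 0.43 without C1 replicate 2, 0.57 without WT replicate 1 and 0.30 without WT replicate 2. For the mean of the clones, where 8 were called, the median was 0.38, and 0.40, 0.35, 0.51 and 0.25 in the same order. In C1 against WT it was 0.42 without WT replicate 1 and 0.21 without WT replicate 2. The mitochondrial calls against WT did not persist without WT replicate 2.

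**Figure D5:**
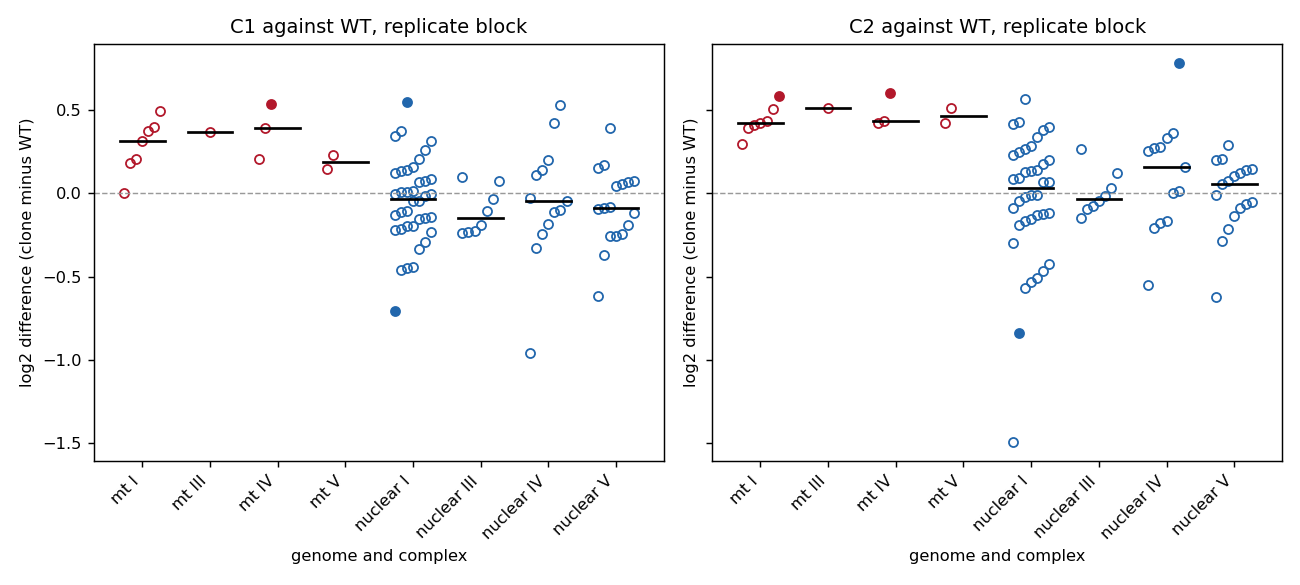
Log2 difference of each clone minus WT, fitted with a replicate block, for the 89 tested subunit genes by genome (mt, mitochondrial) and complex; filled points were called at an adjusted p below 0.05 and black lines are medians. The mitochondrial medians lie above 0 in C1 and C2, and the filled nuclear points are NDUFA8 and NDUFS8 in C1 and COX7A2 and NDUFS8 in C2.

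Genes that work with these complexes but fall outside the symbol rule were read from lists chosen with earlier results known, using the fit with the block. Of 12 tested genes of complex II and electron entry, DHODH, which feeds electrons from pyrimidine synthesis into ubiquinone, fell in C1 by 0.84 and in C2 by 0.89 on the log2 scale. CYC1, the cytochrome c1 subunit of complex III, fell by 0.49 for the mean of the clones. In replicate 2, 11 of the 12 had negative values and 5 were called lower, where 12.2% of all genes were called lower. Among the 5 were SQRDL at -1.08 and CYCS, cytochrome c itself, at -0.59. Of 3 further ATP synthase genes, all 3 had negative values in replicate 2 and 2 were called lower: ATPIF1, its inhibitor, at -0.66, and C14orf2 at -0.42.

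Assembly and expression factors were read in the same way, beside the shares of all genes given above. Genes given here as higher or lower were called at an adjusted p below 0.05. Of 15 complex I assembly genes, NDUFAF3 was lower for the mean of the clones (log2 -0.48), and NDUFAF6 at -0.64, ACAD9 at -0.55 and FOXRED1 at -0.49 were lower in replicate 2. Of 27 assembly genes for complexes III, IV and V, C11orf83 at -0.93 and COA4 at -0.60 were lower in C2 against WT, and the same 2 were lower for the mean of the clones. In replicate 2, 2 of these 27 were higher (SURF1 at 0.63 and C11orf83 at 0.56) and 3 lower (COX17, COX16 and COA6). Of 19 genes for mitochondrial DNA upkeep and transcription, none was called in the clones with the block, and in replicate 2 TK2 was higher by 0.81 and SSBP1 and MGME1 were lower, each at -0.60. Of 21 genes for mitochondrial RNA processing and decay, 18 had negative values in replicate 2 and 5 were called lower. Among the 5 were FASTKD2 at -0.49, SLIRP at -0.45, PTCD3 at -0.45 and PNPT1 at -0.43. PTCD2 was called lower for the mean of the clones at -0.83.

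Among 13 regulators of these genes, PPARGC1B, a coactivator of mitochondrial gene programmes, had 2.34 and 2.43 CPM in C1 and 3.03 and 2.25 CPM in C2, against 7.13 and 7.71 CPM in WT, in replicates 2 and 1. The groups did not overlap. It fell by 1.64 in C1 (log2, SE 0.28, edgeR adjusted p = 0.003) and by 1.49 in C2 (SE 0.28, adjusted p = 0.008) with the block. PPARA at 1.38 and ESRRA at 0.45 were higher in replicate 2.

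The factor NRF1 is known to bind promoters of nuclear subunit genes, and stretches of 3 promoters that hold its motif are shown because these genes were called lower in replicate 2. They were read from RefSeq (GRCh38.p14) in the direction of transcription, with capitals marking the NRF1 motif on either strand.
NDUFA12, chr12:95003784-95003833, - strand: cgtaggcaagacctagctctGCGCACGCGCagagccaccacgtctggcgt
NDUFB4, chr3:120596157-120596302, + strand: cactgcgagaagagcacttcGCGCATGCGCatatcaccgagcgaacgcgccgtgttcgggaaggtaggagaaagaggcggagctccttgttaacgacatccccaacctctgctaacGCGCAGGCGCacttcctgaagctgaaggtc
ATP5I (ATP5ME), chr4:674421-674515, - strand: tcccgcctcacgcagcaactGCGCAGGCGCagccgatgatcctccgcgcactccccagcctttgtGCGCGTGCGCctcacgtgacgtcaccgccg
Promoters of 300 bases were matched for 62 of the 76 nuclear genes. The NRF1 motif was in 13 of the 62 (21%), in 3 of 22 called lower in replicate 2 (13.6%), and in 6.28% of 27305 promoters. The ETS motif CCGGAAGT was in 8 of the 62 (12.9%), 2 of the 22 (9.09%) and 4.44% of all promoters. A match is a description and not a binding site.

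Over the 6 libraries, genes whose log2 CPM closely resembled that of MT-CO1 included CCDC167, BTAF1, OTUD3 and SACM1L, at Pearson r of 0.998, 0.996, 0.991 and 0.989, among 8656 genes ranked. The nearest subunit gene was MT-CYB at 0.955, at rank 84, and the nearest nuclear one was NDUFB4 at 0.951, at rank 92. With 6 libraries that share these 3 groups and replicate numbers, this is a description only.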

How the data were processed

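The authors deposited 1 table of unnormalized read counts by gene with a column for each of the 6 libraries, per the file headers. Reads were processed with cutadapt 1.6, STAR 2.5.0a and HTSeq 0.5.3 on hg19, per the submitters' processing notes. The strand setting and annotation release are not given in the sources used here, so reads of a gene and of one overlapping it in antisense cannot be separated. HTSeq's totals of reads outside genes (9.77% to 10.7% of reads) and of ambiguous (2.62% to 2.84%), multiply aligned (6.77% to 7.56%) and unaligned reads (1.24% to 2.27%) were left out of library sizes. Groups and replicate numbers came from the sample titles.

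Counts were fitted in R 4.3.3 with edgeR 4.0.16 (filterByExpr, trimmed mean of M values, robust quasi-likelihood F test, Benjamini-Hochberg adjustment over 17129 genes, threshold 0.05) and all 6 libraries in 1 model with a mean per group. The replicate number was added as a block because deviations of same-numbered libraries from their group means correlated by 0.701 (C1 and C2), 0.584 (C1 and WT) and 0.634 (C2 and WT). Replicate 2 against replicate 1 came from that model. Each SE was derived from the test, as the absolute log2 difference divided by the square root of the F statistic. Log2 CPM used a prior count of 2. Replicates were not copies: their counts differed by a chi-square per gene of 127 in C1, 112 in C2 and 98.1 in WT. DESeq2 1.42.0, other scalings, no filter and leaving out libraries were alternatives. Transcript lengths came from GENCODE 29. The precision of counts covers counting error only.

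The members and gene lists were chosen with earlier results of these data known. MT-ATP6 and MT-ATP8, whose symbols end like those of pseudogenes, were kept. Named were all mitochondrial genes; nuclear genes called (all if 12 or fewer, otherwise the 6 highest and 6 lowest with a mean log2 CPM of at least 1); the highest and lowest gene per complex; isoform pairs; up to 4 called genes per list; and the 5 genes most like MT-CO1 among those with a mean log2 CPM of at least 4, of which 1 is not reported here.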

Additional observations from a re-analysis of the deposited data

How the results depend on the processing

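With the replicate block, subunit genes called were 3 in C1 against WT, 4 in C2 against WT and 8 for the mean of the clones, against 0 in each without the block; DESeq2 called 1 for the mean of the clones. Leaving out 1 library at a time, with or without the block, gave 0 to 4, 0 to 17 and 0 to 16 in these comparisons, and 8 to 37 for replicate 2 against replicate 1. Without the block, the median log2 difference of the mitochondrial genes ran over these fits from -0.092 to 0.74 in C1 against WT, 0.049 to 0.89 in C2 against WT, -0.012 to 0.82 for the mean of the clones and -0.12 to 0.53 in C2 against C1. It turned negative without WT replicate 2 (C1 -0.033, mean of the clones -0.012), without C1 replicate 1 (C1 -0.092), and in C2 against C1 without C1 replicate 2 (-0.063) or C2 replicate 1 (-0.12). With the block it was positive in every fit that left out a library, at 0.21 to 0.42, 0.30 to 0.57, 0.25 to 0.51 and 0.074 to 0.28 in the 4 comparisons. Each of the fits without the block left a group with a lone library that is assumed to vary like the others, and sets unequal numbers of replicate 1 and 2 libraries against each other. Without the block the nuclear medians ran from -0.27 to 0.14, -0.11 to 0.16, -0.15 to 0.17 and -0.11 to 0.26 in the same 4 comparisons; that for the mean of the clones turned positive without C1 replicate 2 (0.089), C2 replicate 2 (0.023) or WT replicate 1 (0.17), and with the block it ran from -0.083 to 0.031. Set as mean log2 CPM in place of summed counts, the ratio of mitochondrial to nuclear genes was 72.7 in C1, 78.8 in C2 and 57.5 in WT. Of the values of single genes recomputed (the 13 mitochondrial genes and the called nuclear genes for the mean of the clones, 5 genes in each clone, and the genes named for the replicates), 438 kept their direction and side of the threshold, 23 lost the call, 16 gained it and 10 changed direction. The 10 came from fits that left out a library, without the block: for the mean of the clones MT-ND2 ran from -0.012 to 0.83, MT-ND4 from -0.14 to 0.91, MT-ND4L from -0.36 to 0.76, MT-ND5 from -0.10 to 0.77, MT-CO2 from -0.093 to 0.79, MT-ATP6 from -0.048 to 0.87 and MT-ATP8 from -0.18 to 0.82, and in C1 against WT MT-ND6 ran from -0.092 to 0.88. No value could be given without the mitochondrial genes that have nuclear copies, since all 13 have one listed. With 2 libraries per group, the number of libraries and not the counts limits the mitochondrial mRNAs.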
